A study of Mus musculus with 18 samples.

Results

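Pdk1, Pdk2 and Pdk4 encode pyruvate dehydrogenase kinases, and the array carried 4 spots for them among 28704 spots in all. The members were the spots whose only gene symbol on the platform was one of these names, which gave 1 spot for Pdk1 (spot 26328), 2 for Pdk2 (spots 6701 and 22587) and 1 for Pdk4 (spot 10686). The hearts came from male and female mice under 3 conditions, each for 1, 2 or 4 weeks. The conditions were control, chronic constant hypoxia (CCH) and intermittent hypoxia, also chronic (CIH). Each of the 9 groups had 2 arrays, 18 in all, and every array paired male cDNA, labelled with Cy5, and female cDNA, labelled with Cy3. Strain, age, oxygen level and any pooling of hearts are not given in the labels. The value used throughout is the channel ratio of 1 array on the log2 scale, centred on that array's median, so 0 is the ratio of the typical spot and 1 is a doubling. It shows no level of expression, and when the ratio differs between groups, the sex that moved stays unknown.

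Pyruvate dehydrogenase kinases sit in the mitochondrial matrix and phosphorylate the pyruvate dehydrogenase (PDH) complex, which turns pyruvate from glycolysis into acetyl-CoA for the citric acid cycle. Phosphorylation switches the complex off, and PDH phosphatases switch it on again. In the heart, which burns mainly fatty acids, the kinases hold back glucose oxidation. Pdk1 is a textbook target of hypoxia-inducible factor, Pdk2 is expressed in many tissues, and Pdk4 is the member that rises with fasting and fatty acid supply through PPAR nuclear receptors, glucocorticoids and FoxO factors.

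Because the study varied oxygen, the bases upstream of the 3 genes are shown with the letters bound by hypoxia-inducible factor in capitals (ACGTG or GCGTG, searched on both strands). Each run has 240 bases, from 250 to 11 bases before the outermost of the start sites listed for the gene. The runs were read from RefSeq for GRCm38.p6 and are written 5′ to 3′ on the strand of the gene. All 3 genes were found in that table. The windows are chr2:71872974-71873213 on the plus strand for Pdk1, chr11:95041382-95041621 on the minus strand for Pdk2 and chr6:5496289-5496528 on the minus strand for Pdk4.
Pdk1: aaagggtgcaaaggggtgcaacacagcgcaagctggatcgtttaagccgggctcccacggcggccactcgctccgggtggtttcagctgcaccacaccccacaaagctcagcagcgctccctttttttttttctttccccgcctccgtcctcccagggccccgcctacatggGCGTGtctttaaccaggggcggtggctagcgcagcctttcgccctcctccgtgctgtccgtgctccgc
Pdk2: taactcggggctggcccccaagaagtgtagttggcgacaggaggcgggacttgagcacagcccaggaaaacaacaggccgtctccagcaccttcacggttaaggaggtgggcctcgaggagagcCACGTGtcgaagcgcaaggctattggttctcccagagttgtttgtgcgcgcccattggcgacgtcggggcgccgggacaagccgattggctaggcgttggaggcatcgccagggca
Pdk4: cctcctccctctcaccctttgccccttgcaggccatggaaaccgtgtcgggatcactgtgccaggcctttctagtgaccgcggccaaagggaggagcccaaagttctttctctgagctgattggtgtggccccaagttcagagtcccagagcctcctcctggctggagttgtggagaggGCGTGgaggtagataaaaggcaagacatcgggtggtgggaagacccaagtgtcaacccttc
The Pdk1 window held 1 match, a GCGTG that begins 78 bases before the start site used. The Pdk1 gene itself is annotated from base 71873215, slightly upstream of that site, so the match lies closer to the annotated start. In the Pdk4 window 1 GCGTG began 71 bases before the start site. The Pdk2 window held 2 matches of ACGTG, 1 on each strand, which overlap in a palindrome. Of 32851 windows of the same length in the RefSeq table, 37.4% held at least 1 match, 15.9% an ACGTG and 27.1% a GCGTG. A match describes the letters only.

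The labels name the dyes but not which channel is divided by which. Male over female is likely, because Eif2s3y, a gene of the Y chromosome, was above 0 on 17 of 18 arrays. On CIH 4 weeks replicate 1 it was at -0.03. Arrays correlated with each other between -0.53 and 0.74 over all spots, and 12 of 153 pairs lay under -0.3. The number of spots with a value ran from 12650 to 24512 per array. The title of CIH 1 week replicate 1 gives 1 week of CIH, while its source names give 2 weeks of CCH, and it was grouped by its title. The labels do not tell whether both arrays of a group stand for different animals. The p-values therefore weigh differences against array-to-array spread, which may be technical. Sex and dye cannot be told apart, since every array held the male heart in Cy5. Heart markers could not be checked by level, because the values are ratios. CCH 1 week replicate 1 stood apart in liver genes. The median ratio of the 3 tested liver markers was 2.31 there and -0.91 to 0.70 on the other 17 arrays, with Alb, the gene of albumin, at 5.67 on that array and at -2.65 on CCH 1 week replicate 2. Several results that use this array are also given without it. Others are not, among them CCH minus CIH of Pdk1 and Pdk4 and the r values with genes outside the 3 members.

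Pdk4 had the largest ratios of the 3 genes, and they lay in hypoxic hearts. In the controls its log2 ratio was 0.60 and -0.24 at 1 week, -0.31 and 0.05 at 2 weeks, and -0.14 and 0.13 at 4 weeks. Under CCH it was -0.13 and -0.36 at 1 week, -0.05 and 0.64 at 2 weeks, and 0.64 and 0.97 at 4 weeks. Under CIH it was 0.18 and -0.04 at 1 week, 1.12 and 1.31 at 2 weeks, and 0.024 and 0.0032 at 4 weeks. Both arrays of CIH at 2 weeks and both arrays of CCH at 4 weeks were thus above every control array, while the other hypoxia groups overlapped with the controls.

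The mean of CIH at 2 weeks was 1.21 ± 0.13 (SD, n = 2), a 2.32-fold ratio of the channels, and that of CCH at 4 weeks was 0.81 ± 0.24 (SD, n = 2), a 1.75-fold ratio. Within its own array Pdk4 was higher than 99.2% and 99.6% of all units on the arrays of CIH at 2 weeks. On those of CCH at 4 weeks it was higher than 82.4% and 97.2%. The first of these, CCH 4 weeks replicate 1, had the widest spread of ratios of all arrays, with a median absolute deviation of 0.72 against 0.18 to 0.62 on the other 17. The arrays of CIH at 2 weeks had deviations of 0.45 and 0.62, and their part in the result was not tested beyond scaling the arrays to a common spread.

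**Figure D1:**
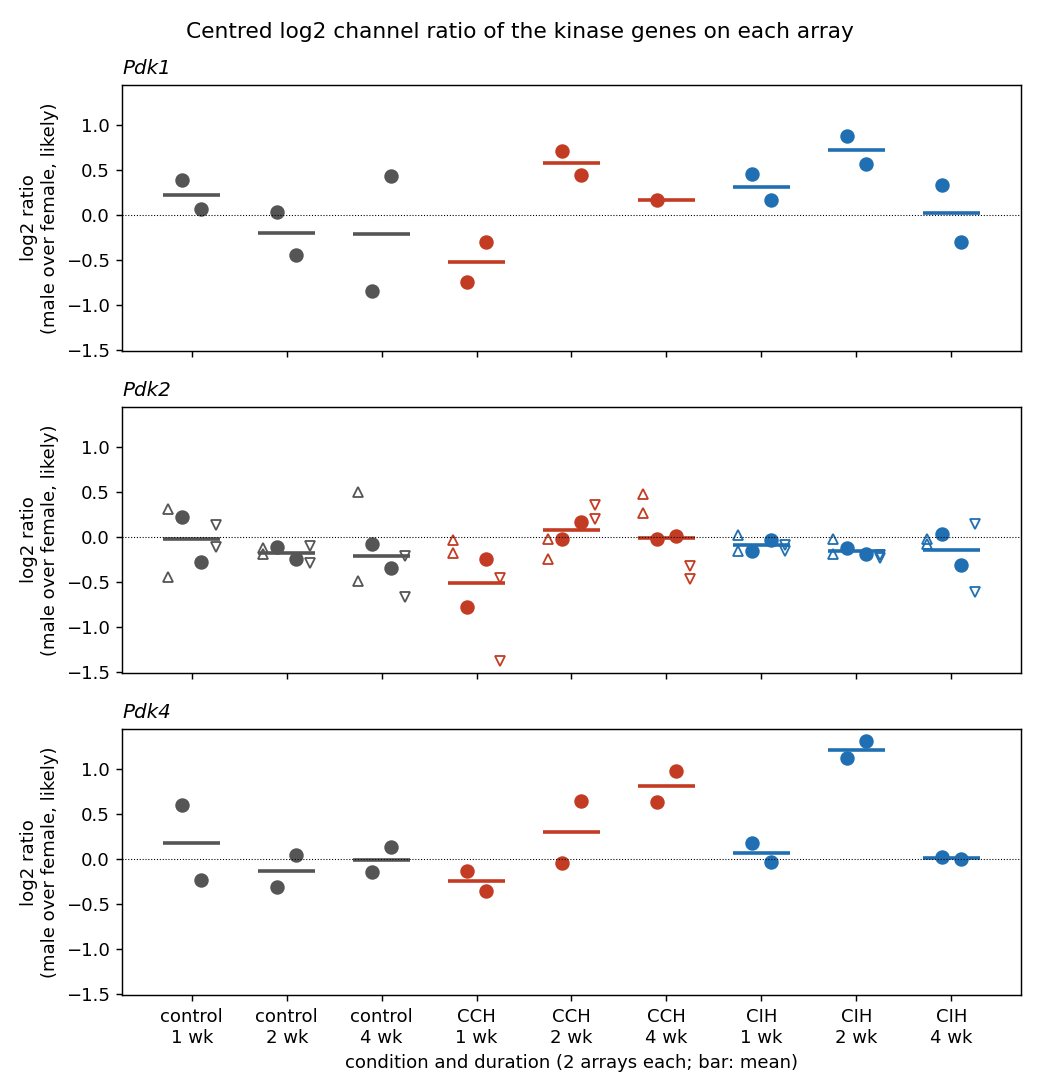
Centred log2 channel ratio (vertical axis) of Pdk1, Pdk2 and Pdk4 on each array, by condition and duration in weeks (horizontal axis). Filled points are arrays, bars are means of 2 arrays (1 for Pdk1 in CCH at 4 weeks), and open triangles in the middle panel are the 2 Pdk2 spots, pointing up for spot 6701 and down for spot 22587. Pdk4 stands at 1.12 and 1.31 in CIH at 2 weeks and at 0.64 and 0.97 in CCH at 4 weeks.

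Set against the controls of the same duration, Pdk4 was higher by 1.34 in CIH at 2 weeks, and 59 of 9224 units measured on those 4 arrays had a larger difference. In CCH at 4 weeks it was higher by 0.81, and 117 of 8418 units had a larger one. Both hypoxic arrays lay above both controls in these 2 cases. That position alone is common, since 28.8% of all units held it for CIH at 2 weeks and 15.9% for CCH at 4 weeks. The reverse position was held by 35.7% and 22.7%. At the other durations the differences were -0.42 (CCH, 1 week), 0.43 (CCH, 2 weeks), -0.11 (CIH, 1 week) and 0.022 (CIH, 4 weeks). The arrays of the groups overlapped in all 4 of those.

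Averaged over the 3 durations, the difference of Pdk4 between CIH and control was 0.42 ± 0.17 (SE) with a 95% interval from 0.06 to 0.77, and 4 of 6 CIH arrays were above the control mean of their duration. It did not pass the test over all units, with an unadjusted p of 0.0239 by limma and an adjusted p of 0.308. An exact two-sided permutation within durations gave p = 0.194, which was 0.694 after adjustment over 9 such tests. CCH minus control was 0.27 ± 0.17 (SE; 95% interval -0.08 to 0.63; 4 of 6 arrays above), with a limma adjusted p of 0.749 and an exact permutation p of 0.324. Without CCH 1 week replicate 1 it was 0.23. CCH minus CIH was -0.15 ± 0.17 (SE; 95% interval -0.50 to 0.21), with a limma adjusted p of 0.865 and an exact permutation p of 0.593. Among all 10272 units 0% passed the test in CCH minus control and 0.00974% (1 unit) in each of the other 2 comparisons. At an unadjusted p under 0.05 these shares were 6.32% for CCH minus control, 12.7% for CIH minus control and 9.28% for CCH minus CIH.

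Whether the hypoxia effect changed with duration was tested with 1 F test per unit over both kinds of hypoxia. Pdk4 had an unadjusted p of 0.00191 by limma, which is rank 54 of 10272 units, and an adjusted p of 0.358. No unit passed this test (0%), and 13% had an unadjusted p under 0.05. With robust regression the F test of Pdk4 passed (adjusted p = 0.00904), and so did its CIH minus control difference (adjusted p = 0.0424), in a fit that called 2337 and 1012 units in these comparisons. Over all conditions, 4 weeks minus 1 week was 0.27 ± 0.17 for Pdk4 (SE; limma adjusted p = 0.620; 4 of 6 arrays below the mean of 1 week in their condition). The 2 arrays above it were those of CCH.

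Taken over all 18 arrays, Pdk4 was above 0, at 0.24 ± 0.07 (SE; 95% interval 0.10 to 0.39; limma adjusted p = 0.0170), on 11 of 18 arrays. It was the only 1 of the 3 genes past this threshold, where 27.7% of all units passed, 8.99% above 0 and 18.7% below (41.1% at an unadjusted p under 0.05), so a call of this kind is common here. The call was lost with quantile normalization (0.18, adjusted p = 0.107), with arrays scaled to a common spread (0.16, adjusted p = 0.167) and with 1 mean per condition (adjusted p = 0.116). In the controls alone the Pdk4 ratio was 0.014 ± 0.12 (SE; limma adjusted p = 0.983), above 0 on 3 of 6 arrays.

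Markers of other cells also differed between these arrays. Of 13 red cell markers, 7 had a spot and 6 were tested, and Hbb-b1, the only globin gene of the list with a spot, had too few values for the test. The median ratio of the 6 tested ranged from -0.28 to 0.41 on the control arrays, from -1.78 to 1.05 under CCH and from -2.19 to 0.038 under CIH. It was -1.22 and -2.19 on the arrays of CIH at 2 weeks, where Pdk4 was highest, and 1.05 and -0.13 on those of CCH at 4 weeks. In CIH minus control 4 of the 6 were negative and 2 positive, none passed the test, and the median was -1.22. Car1 and Klf1 were at 0.019 and 0.029. Alas2, the first enzyme of heme synthesis in red cells, had a CIH minus control difference of -1.73 and Slc4a1, the anion exchanger of the red cell membrane, one of -1.74 (limma adjusted p = 0.0661 and 0.0521). These 2 were chosen after their values were seen. Of 8 leukocyte markers 6 were tested, and their median ratio ranged from -0.55 to 0.11 in the controls, -1.12 to -0.16 under CCH and -0.74 to -0.15 under CIH. All 6 fell below 0 over all arrays by limma, where 18.7% of all units fell, and none passed in a comparison of conditions, where 0% to 0.00974% of units did. Their part in the Pdk ratios was not tested. In bulk tissue, fewer cells of a type and less RNA per cell cannot be told apart.

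Pdk1, the kinase gene tied to the hypoxia-inducible factor, varied about as widely as Pdk4 over all arrays. Within the 6 controls the SD was 0.33 for Pdk4 and 0.49 for Pdk1. Its ratio was 0.38 and 0.07 in the 1-week controls, 0.03 and -0.44 at 2 weeks, and -0.84 and 0.43 at 4 weeks. Under CCH it was -0.75 and -0.30 at 1 week and 0.71 and 0.44 at 2 weeks. At 4 weeks of CCH 1 array gave 0.16 and the other had no value, so every Pdk1 result rests on 17 arrays. Under CIH it was 0.46 and 0.17 at 1 week, 0.87 and 0.57 at 2 weeks, and 0.34 and -0.30 at 4 weeks. Both kinds of hypoxia at 2 weeks had both arrays above both of their controls, and CCH at 1 week had both below. The lower of that pair, -0.75, is the array that stood apart in liver genes.

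The largest differences of Pdk1 from controls of the same duration were 0.92 in CIH at 2 weeks and 0.78 in CCH at 2 weeks. In CCH at 1 week it was -0.75. Of the units measured on the same arrays, 95.9%, 98.3% and 1.38% had a lower difference. Non-overlap in that direction was held by 28.8%, 24.8% and 19.5% of all units in these groups, and for CCH at 2 weeks 33.5% lay below both controls. Averaged over durations, CIH minus control was 0.41 ± 0.21 (SE; 95% interval -0.04 to 0.86; 4 of 6 arrays above), with a limma adjusted p of 0.417 and an exact permutation p of 0.157. CCH minus control was 0.13 ± 0.23 (SE; 95% interval -0.35 to 0.62; limma adjusted p = 0.882), and it was -0.08 without control 4 weeks replicate 1 and 0.21 without CCH 1 week replicate 1. CCH minus CIH was -0.28 ± 0.23 (SE; 95% interval -0.76 to 0.20; limma adjusted p = 0.779).

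Against 0, the mean ratio of Pdk1 was 0.12 ± 0.09 over all arrays (SE; limma adjusted p = 0.334; above 0 on 12 of 17 arrays). In the controls it was -0.06 ± 0.15 (SE; limma adjusted p = 0.934; above 0 on 4 of 6). The 4-week pair was the widest of the controls, and without control 4 weeks replicate 1 their mean was 0.15. The F test for a change of the hypoxia effect with duration gave an unadjusted p of 0.0832 and an adjusted p of 0.398 by limma. The adjusted p became 0.0313 with robust regression, a fit that called 2337 units in this test against 0 in the main one. From 1 week to 4 weeks Pdk1 differed by -0.014 ± 0.23 (SE; limma adjusted p = 0.992).

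Pdk2, the broadly expressed kinase, had the smallest ratios. As the mean of its 2 spots it was 0.22 and -0.28 in the 1-week controls, -0.11 and -0.24 at 2 weeks, and -0.08 and -0.35 at 4 weeks. Under CCH it was -0.78 and -0.25 at 1 week, -0.02 and 0.17 at 2 weeks, and -0.03 and 0.01 at 4 weeks. Under CIH it was -0.15 and -0.03 at 1 week, -0.13 and -0.19 at 2 weeks, and 0.03 and -0.31 at 4 weeks. It was below 0 on 14 of 18 arrays, and the lowest was CCH 1 week replicate 1, the array with the high liver markers. Their part in the Pdk2 ratio was not tested.

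The 2 spots of Pdk2 gave different patterns. Spot 6701 ranged from -0.49 to 0.50 with a mean of -0.03 ± 0.27 (SD over 18 arrays), and spot 22587 from -1.38 to 0.36 with a mean of -0.25 ± 0.39. Their ratios did not run together across arrays (Pearson r = -0.14, permutation p = 0.573; Spearman rho = -0.20, permutation p = 0.418; 18 arrays). The widest gaps between them were 1.20 on CCH 1 week replicate 1, 1.17 on control 4 weeks replicate 1 and 0.94 on CCH 4 weeks replicate 2, with spot 6701 higher each time. The gene mean of Pdk2 is therefore an average of 2 unlike measurements, and which of them follows the transcript cannot be told from these files.

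By the mean of the 2 spots, both Pdk2 arrays lay above both controls in CCH at 2 weeks and at 4 weeks, by 0.25 and 0.20. That position was held by 24.8% and 15.9% of all units. Of the single spots, only 22587 held it at 2 weeks, and neither did at 4 weeks. There spot 6701 was at 0.27 and 0.48 against controls at 0.50 and -0.49. Spot 22587 was at -0.32 and -0.46 against -0.66 and -0.21. No comparison of conditions passed the test for Pdk2. CCH minus control was -0.011 ± 0.14 (SE; 95% interval -0.30 to 0.28; limma adjusted p = 0.988) and CIH minus control 0.0077 ± 0.14 (SE; 95% interval -0.28 to 0.30; limma adjusted p = 0.980). The first was 0.12 with spot 6701 alone and -0.14 with spot 22587 alone, and 0.08 without CCH 1 week replicate 1. The second was -0.0028 with spot 6701 alone. CCH minus CIH was -0.018 ± 0.14 (SE; limma adjusted p = 0.984) and 0.07 without that array, and the F test over durations had a limma adjusted p of 0.465. The exact permutation p-values of the 3 differences were 0.954, 0.926 and 0.917. From 1 week to 4 weeks Pdk2 differed by 0.09 ± 0.14 (SE; limma adjusted p = 0.849) and by 0.00010 without the same array, a comparison in which 0% of units passed and 9.61% had an unadjusted p under 0.05.

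Over all arrays Pdk2 was at -0.14 ± 0.06 (SE; 95% interval -0.26 to -0.02), with a limma adjusted p of 0.0717, and at -0.11 without CCH 1 week replicate 1 (adjusted p = 0.151). With spot 22587 alone it passed (-0.25, adjusted p = 0.0185), and with spot 6701 it was at -0.03. It also passed without centring (-0.19, adjusted p = 0.0166), where array medians from -0.17 to 0.018 stay in every value. With robust regression it passed too (adjusted p = 0.00683), in a fit that called 4994 of 10272 units here. It was at -0.17 without control 1 week replicate 1 and at -0.17 without CCH 1 week replicate 2. In the controls Pdk2 was at -0.14 ± 0.10 (SE; limma adjusted p = 0.689; below 0 on 5 of 6 arrays), in a comparison where 0.00974% of units (1 unit) passed and 9.15% had an unadjusted p under 0.05.

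**Figure D2:**
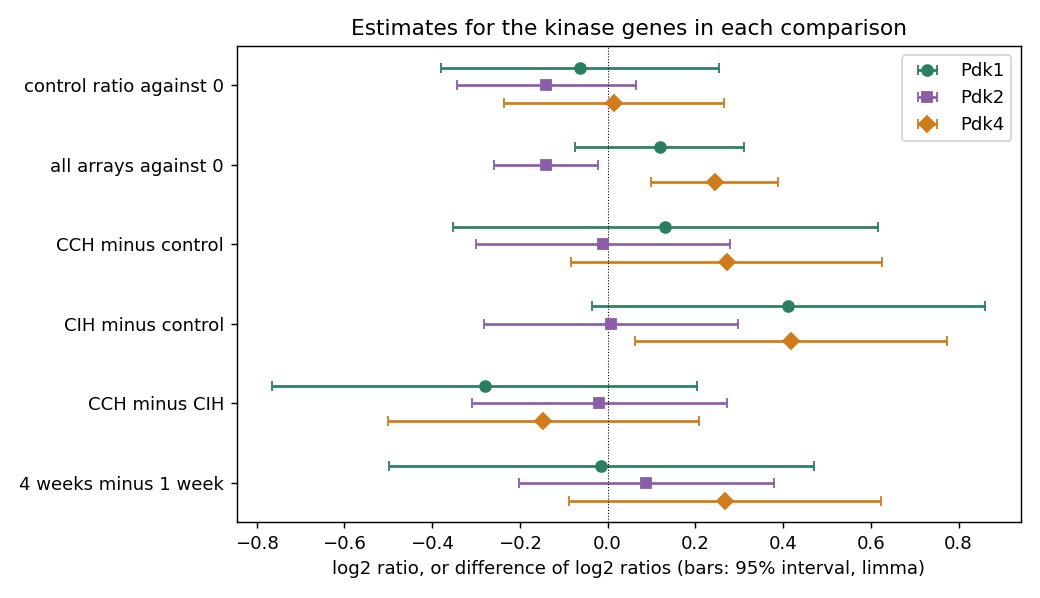
Estimates from limma for Pdk1, Pdk2 and Pdk4 in 6 comparisons (vertical axis), as a log2 ratio for the first 2 and as a difference of log2 ratios for the others (horizontal axis). Bars are 95% intervals before adjustment over all units. The interval of Pdk4 lies above 0 over all arrays (0.10 to 0.39) and in CIH minus control (0.06 to 0.77), and that of Pdk2 below 0 over all arrays (-0.26 to -0.02).

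Ordered by group means, CIH at 2 weeks came first for Pdk4 (1.21) and Pdk1 (0.72), and CCH at 1 week came last for all 3 genes (-0.24, -0.52 and -0.51 for Pdk4, Pdk1 and Pdk2). Its other array alone, CCH 1 week replicate 2, was at -0.36, -0.30 and -0.25. For Pdk2 the order began with CCH at 2 weeks (0.07). For Pdk4 the first group did not overlap with the second, CCH at 4 weeks, and every later pair of neighbours overlapped. For Pdk1 and Pdk2 all neighbours in the order overlapped.

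Pdk1 and Pdk4 ran partly together across arrays. Over 17 arrays Pearson r was 0.57 (permutation p = 0.0156, adjusted over 3 pairs 0.0469) and Spearman rho 0.63 (permutation p = 0.00765, adjusted 0.0229). Without the 2 arrays farthest from the median of Pdk1, r was 0.56 (permutation p = 0.0290). Within conditions r was 0.44 over the 6 controls (exact p = 0.4) and 0.73 over the 6 CIH arrays (exact p = 0.0917), and under CCH only 5 arrays had both values, under the minimum of 6 set for a correlation. The adjusted p was between 0.0515 and 0.0849 when any of 11 arrays was left out, with r between 0.48 and 0.59. It stayed under the threshold without either 4-week control array, CCH 2 weeks replicate 1, CCH 4 weeks replicate 2, CIH 2 weeks replicate 2 or CIH 4 weeks replicate 1. The pooled permutations exchanged arrays freely over all groups. Of the genes measured on all arrays, 22.6% had an r over 0.5 with Pdk1 and 9.32% with Pdk4, so a value of this size is common for Pdk1. Pdk1 and Pdk2 had r = 0.50 (permutation p = 0.0384, adjusted 0.0576) and rho = 0.36 (permutation p = 0.158), and without the 2 farthest arrays r was 0.39. Without CCH 1 week replicate 1 it was 0.29. Within conditions r was 0.07 over the controls and 0.35 under CIH, and CCH again had 5 arrays, so the pair is not described there. With single Pdk2 spots r was 0.73 with spot 22587 and -0.25 with spot 6701. Pdk2 and Pdk4 had r = 0.35 (permutation p = 0.162) and rho = 0.34 (permutation p = 0.165), with r = 0.59 over the controls, 0.61 under CCH and -0.22 under CIH.

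The targets of the kinases, the genes of the PDH complex, all had spots and were all tested. Over all arrays, where 8.99% of all units rose above 0, 1 of 5 did, which was Dld, the dihydrolipoamide dehydrogenase that the complex shares with other enzymes (0.31 ± 0.09 SE; limma adjusted p = 0.0273; above 0 on 13 of 18 arrays). Pdhb, a subunit of the enzyme that decarboxylates pyruvate, was at 0.35 ± 0.13 (adjusted p = 0.0611), and Pdha1, the X-linked subunit of the same enzyme that the kinases phosphorylate, at 0.19 ± 0.10 (adjusted p = 0.157). Dlat, the acetyltransferase core, was at 0.13 ± 0.07 (adjusted p = 0.176) and Pdhx, which anchors Dld to the core, at -0.15 ± 0.10 (adjusted p = 0.286). The list median was 0.19 against -0.04 for all units. No subunit passed the test in a comparison of conditions, where only 0% to 0.00974% of all units did. In CIH minus control all 5 were positive with a median of 0.49 against -0.0066 for all units, led by Pdhb at 0.57 and Dld at 0.50 (adjusted p = 0.459 and 0.381).

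Array by array, Pdk1 followed these subunits. Its Pearson r was 0.89 with Pdha1, 0.85 with Pdhx and 0.82 with Dld over 17 arrays, 0.77 with Dlat over 17 and 0.77 with Pdhb over 16. That is closer than for 95.2% to 99.9% of 5345 genes measured on all arrays. High values of r are frequent for Pdk1, since 22.6% of those genes had an r over 0.5 with it. For Pdk4 r with the subunits lay between 0.31 (Pdhx) and 0.61 (Pdhb), closer than for 75.4% to 96.7% of genes. For the mean of the 2 unlike Pdk2 spots it lay between 0.39 (Pdhx) and 0.64 (Dld), closer than for 89.0% to 99.2%. The Pdk2 spots were not set against the subunits singly. An r over 0.5 was held by 9.32% of genes with Pdk4 and by 4.75% with Pdk2. Against these shares the lower r values of the Pdk2 mean rank about as high as those of Pdk1. All these values share arrays, dyes and centring, and they are descriptions with no test. The median ratio of the 5 subunits was 0.59 and 1.13 on the arrays of CIH at 2 weeks and -0.74 and -0.10 on those of CCH at 1 week. On CIH 4 weeks replicate 1 it was 0.88 while Pdk4 stood at 0.024, and on CCH 4 weeks replicate 2 it was -0.05 while Pdk4 stood at 0.97.

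**Figure D3:**
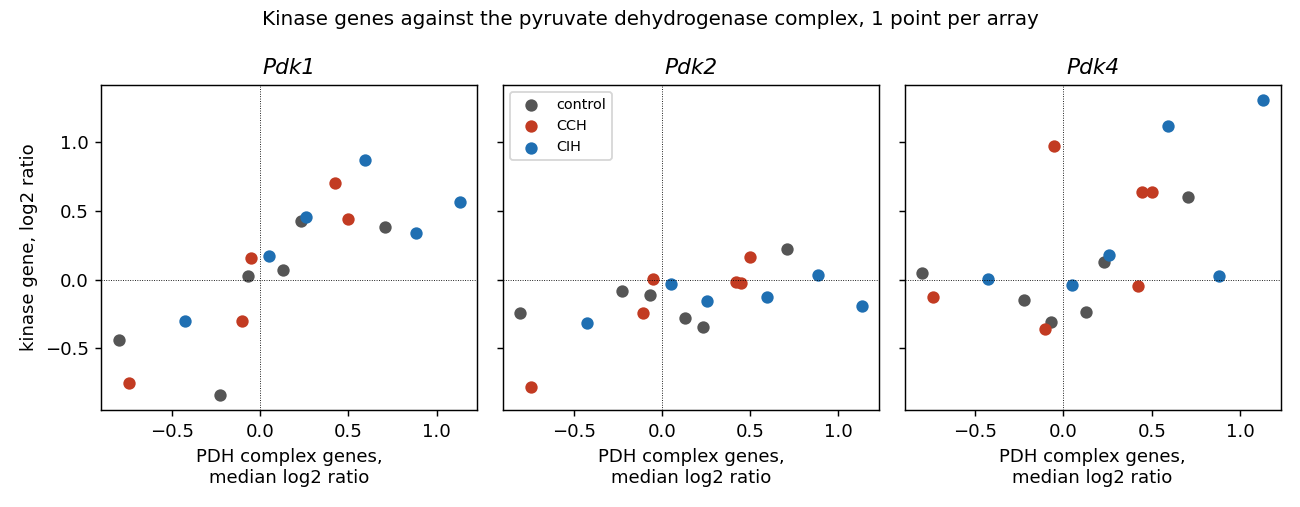
Log2 ratio of each kinase gene (vertical axis) against the median log2 ratio of the 5 PDH complex genes (horizontal axis), 1 point per array, coloured by condition (grey for control, red for CCH, blue for CIH). Pdk1 is higher on arrays where the complex genes are higher, while Pdk4 reaches 0.97 on a CCH array where the complex median is -0.05 and stays at 0.024 on a CIH array where it is 0.88.

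Of 4 tested enzymes that undo or parallel the kinases, 2 fell below 0 over all arrays and none rose, where 18.7% of all units fell and 8.99% rose. Pdp2, a catalytic subunit of PDH phosphatase, fell (-0.28 ± 0.07 SE; limma adjusted p = 0.0110; below 0 on 13 of 17 arrays). So did Bckdk, the related kinase of the branched-chain ketoacid dehydrogenase complex (-0.25 ± 0.05 SE; limma adjusted p = 0.00418; 16 of 18 arrays). Pdp1, the other catalytic phosphatase subunit, was at 0.14 ± 0.05 (adjusted p = 0.0514) and the regulatory subunit Pdpr at -0.0056 ± 0.05 (adjusted p = 0.939). None of these 4 passed in a comparison of conditions, where only 0% to 0.00974% of all units did. Pdk3, the remaining kinase of the family, had 2 spots, with values on 14 and 8 arrays, and could not be tested because CCH at 4 weeks had none. Its first spot, 16984, ranged from -0.96 to 0.55 with a median of -0.48, and its second, 27113, from -0.30 to 0.34 with a median of -0.02.

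Of 19 regulators known to act on Pdk genes, 11 were tested over all arrays, and 3 fell below 0 and none rose, where 18.7% of all units fell and 8.99% rose. Nr3c1, the glucocorticoid receptor, was at -0.26 ± 0.05 (SE; limma adjusted p = 0.00278; below 0 on 17 of 18 arrays). Rxrb, a partner of PPAR receptors, was at -0.25 (adjusted p = 0.00193) and Stat5a, a factor downstream of cytokine and growth hormone receptors, at -0.25 (adjusted p = 0.0122). Hif1a, the oxygen-regulated subunit of hypoxia-inducible factor, was at 0.14 (adjusted p = 0.184) and is named after its value was seen. The list median was -0.04, as for all units. In CCH minus control and CIH minus control none of the 11 passed, where 0% and 0.00974% of all units did.

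Among 15 genes of pyruvate supply and fates 11 were tested, of which 1 rose above 0 and 1 fell below it over all arrays, close to or below the shares of all units (8.99% and 18.7%). Slc16a3, a lactate exporter, was at 0.24 ± 0.05 (SE; limma adjusted p = 0.00510) and Pkm, the muscle pyruvate kinase, at -0.24 ± 0.06 (adjusted p = 0.00738). Ldhb, the lactate dehydrogenase of oxidative tissue, was at -0.18 (adjusted p = 0.116). Of 24 PPAR target genes of fatty acid use, which share regulators with Pdk4, 16 were tested, 6 fell and 1 rose, against 18.7% and 8.99% of all units. The fallen genes included Plin2, the lipid droplet coat (-0.35, adjusted p = 0.00350), Acadvl, a dehydrogenase of long-chain fatty acids (-0.28, adjusted p = 0.00737), and Cpt2, a carnitine transferase (-0.27, adjusted p = 0.00882). The single gene that rose was Cd36, the fatty acid transporter (0.35, adjusted p = 0.0477). The list median was -0.10 against -0.04 for all units.

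Of 20 hypoxia-inducible glycolysis genes, 10 were tested and none passed over all arrays (27.7% of all units did), with a median of -0.04. The nearest were Slc2a1, the basal glucose transporter (-0.16, limma adjusted p = 0.0539), Egln3, an oxygen sensor (0.20, adjusted p = 0.0862), and Pgk1 (-0.17, adjusted p = 0.174). For 16 genes of the citric acid cycle and of lipoylation, 10 were tested and 3 fell, where 18.7% of all units fell. These were Lias, which makes the lipoyl group that the PDH complex needs (-0.32, adjusted p = 0.00105), and the isocitrate dehydrogenase subunits Idh3g (-0.35, adjusted p = 0.00266) and Idh3b (-0.25, adjusted p = 0.0278). No gene of the 7 lists passed the test in a comparison between conditions or durations, where only 0% to 0.00974% of all units did.

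**Figure D4:**
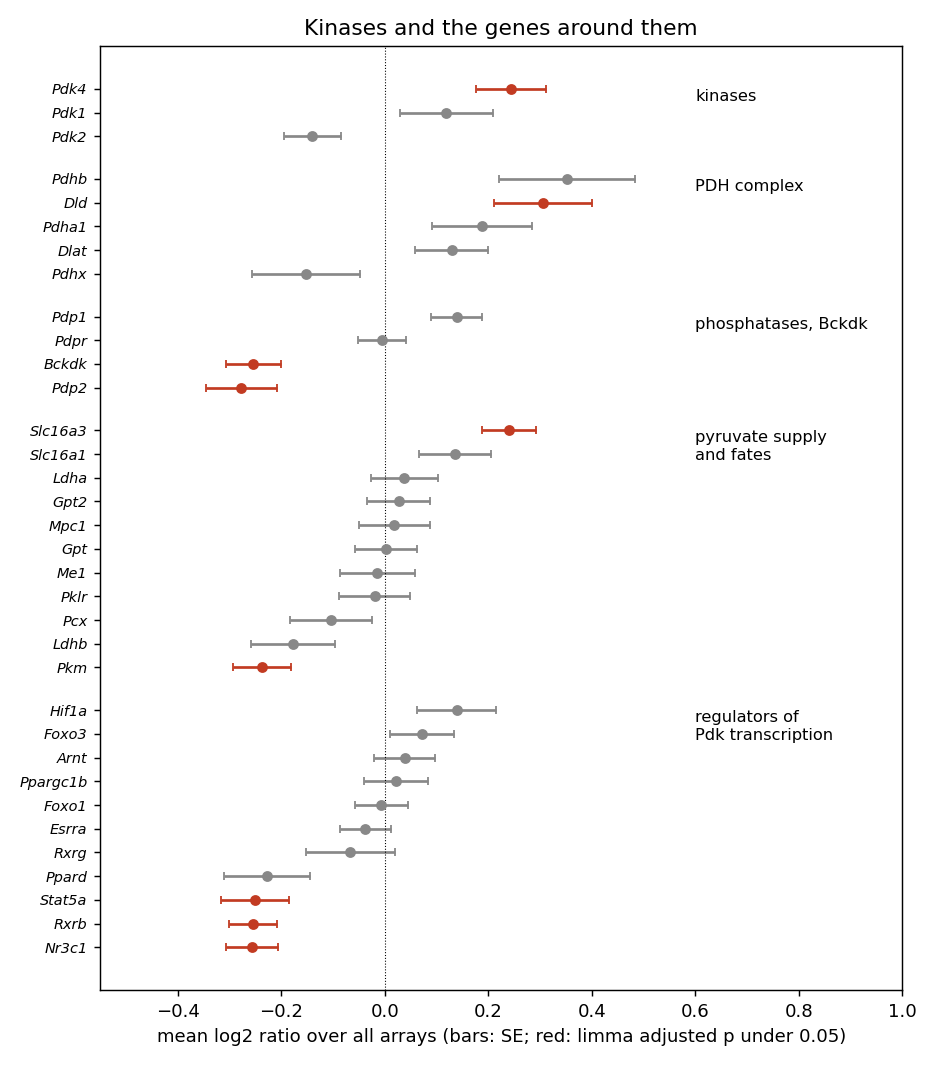
Mean log2 ratio over all arrays (horizontal axis) of the 3 kinase genes and of the tested genes of 4 lists (vertical axis), with bars for the SE and red points for a limma adjusted p under 0.05. Pdk4 (0.24), Dld (0.31) and Slc16a3 (0.24) lie above 0, while Bckdk, Pdp2, Pkm, Nr3c1, Rxrb and Stat5a lie between -0.28 and -0.24.

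By Pearson r of the ratios, the genes most like Pdk4 among those measured on all 18 arrays were Shoc2, a scaffold of growth factor signalling (0.83), the peptidase gene Dpp8 (0.80) and Dab2, an endocytic adaptor (0.80). On the arrays of CIH at 2 weeks Shoc2 was at 0.84 and 0.96. For Pdk1 over 17 arrays they were Srpr, the receptor of the signal recognition particle (0.92), Rab10, a GTPase of vesicle transport (0.92), and Ankrd46 (0.91). For Pdk2, as the mean of its 2 unlike spots over 18 arrays, they were Lyrm9 (0.77), Tmem182 (0.77) and Gata6 (0.76). Gata6 is a transcription factor of heart development. These are the closest of 5345 candidates for Pdk1 and of 5344 for the other genes.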

How the data were processed

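RNA of mouse hearts was measured on 2-colour cDNA arrays. Deposited is 1 log2 channel ratio per spot, and the authors scaled each array to a mean linear ratio of 1. Base 2 and this scaling were read from the values. Background correction, spot filter, normalization and direction are not given in the sources used here.

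Medians were set to 0 on each array and spots sharing a gene were averaged (18511 spots had 1 symbol, 937 several, 9256 none; 18267 gene identifiers matched RefSeq and 0 symbols changed). The 10272 units with a value in each of the 9 groups entered a linear model in limma 3.58.1 (R 4.3.3; 9 group means, contrasts, eBayes, two-sided, Benjamini-Hochberg, threshold 0.05). Exact permutations exchanged 2 conditions within durations (216 relabellings, smallest p 0.00926; fewer for Pdk1). Correlations used 100000 resamples. In data simulated for CCH minus control on 10272 units, 89% of 2-fold and 27.5% of 1.5-fold changes were recovered. The simulated noise was normal and independent between units and arrays, and each change was equal on all CCH arrays. Correlated arrays and changes at a single duration were not simulated, so the shares need not hold for the real data. The number of arrays limits the precision.

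Genes were named by list, with up to 3 of the smallest p per list over all arrays, and all members of the 2 PDH lists. The members and lists were chosen with earlier results of these data known. Alternatives were no centring, quantile normalization, a common spread, the median of spots, single spots, 2 filters, a block, robust regression, array weights, 1 mean per condition, regrouping or omission of arrays and, chosen after seeing the data, the sign of 1 array turned. Figures were drawn with matplotlib 3.10.9.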

Additional observations from a re-analysis of the deposited data

Results flagged for a closer look

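By gene mean, the hypoxia effect differed in sign between durations for all 3 genes under CCH and for Pdk4 under CIH. That is, every array of 1 duration lay above its control mean and every array of the other below. Each such pair of durations was not tested on its own, and the share of all units that meet this rule was not counted. The rule is loose. Even the stricter position above both controls was held by 11.7% to 28.8% of all units in single groups. The position below both was held by 13.2% to 35.7%. Under CCH, Pdk1 was at -0.75 from control at 1 week and 0.78 at 2 weeks. Under CCH, Pdk2 was at -0.48 at 1 week, 0.25 at 2 weeks and 0.20 at 4 weeks, as the mean of its 2 spots. Spot 6701 lay on both sides of its control mean at 1 week (-0.18 and -0.03) and at 2 weeks (-0.24 and -0.02). Spot 22587 did so at 4 weeks (-0.32 and -0.46). Between 1 and 2 weeks the rule was met by spot 22587 only, and between 1 and 4 weeks by neither spot. Pdk4 under CCH was at -0.42 at 1 week, 0.43 at 2 weeks and 0.81 at 4 weeks. Pdk4 under CIH was at -0.11 at 1 week, 1.34 at 2 weeks and 0.022 at 4 weeks. The array with high liver markers, CCH 1 week replicate 1, is 1 of the pair behind each CCH value at 1 week. The joint F test over durations had limma adjusted p-values of 0.398, 0.465 and 0.358 for Pdk1, Pdk2 and Pdk4, and of 0.694, 0.865 and 0.479 without that array.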

How the results depend on the processing

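The differences of Pdk4 and Pdk1 between CIH and control, of Pdk4 between CCH and control, and of Pdk1 and Pdk4 between CCH and CIH kept their sign under every alternative that gave a value, and Pdk4 over all arrays kept its sign too. No limma value of Pdk1 was obtained without CCH 4 weeks replicate 2 or with units on all 18 arrays. The number of arrays and missing spots, not read depth, limit these data, and signal over background is not given.

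With quantile normalization the ratio of Pdk4 over all arrays was 0.18 and with a common spread 0.16, both no longer past the threshold, as with 1 mean per condition (0.24). In the controls Pdk4 was at -0.017 without centring, -0.022 with quantile normalization and -0.050 with a common spread, and Pdk1 at 0.0042 with a common spread. Pdk2 over all arrays passed without centring (-0.19), with spot 22587 (-0.25) and with robust regression (-0.14). CCH minus control of Pdk2 became 0.050 with quantile normalization, 0.066 with a common spread and 0.12 with spot 6701. CIH minus control of Pdk2 became -0.017 without centring, -0.0028 with spot 6701 and -0.0032 with the sign of CIH 4 weeks replicate 1 turned. CCH minus CIH of Pdk2 became 0.0014 with a common spread and 0.12 with spot 6701. From 1 to 4 weeks Pdk2 was at -0.0092 with spot 22587, and Pdk1 at 0.034 with CIH 1 week replicate 1 regrouped. With robust regression CIH minus control of Pdk4 passed (0.42), as did the F tests of Pdk1 (adjusted p = 0.0313) and Pdk4 (0.00904). The cause was not tested. The correlation of Pdk1 with Pdk2 passed without centring (0.52), with quantile normalization (0.55), a common spread (0.52) and spot 22587 (0.73), and was -0.25 with spot 6701. It also passed without CIH 2 weeks replicate 2 or either 4-week control array. That of Pdk2 with Pdk4 passed with quantile normalization (0.52) and a common spread (0.55).

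Counts of units past the threshold in the controls (1) became 2 without centring, 33 with quantile normalization, 21 with a common spread, 8 without a filter and 622 with robust regression. Over all arrays (2845) they became 4994 with robust regression, 1850 with 1 mean per condition and 1354 with the turned sign. In CIH minus control (1) they became 192 without centring, 115 with the median of spots, 199 with single spots, 109 with units on all arrays and 1012 with robust regression. They were 0 with a common spread, array weights, 1 mean per condition or the turned sign. In CCH minus CIH (1) they became 650 with robust regression and 0 with a common spread, single spots, 1 mean per condition or the turned sign. Robust regression called 185 units in CCH minus control, 723 from 1 to 4 weeks and 2337 in the F test, against 0 in each.

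Same-lettered arrays did not deviate together (correlations from -0.56 to 0.46, with 15 of 36 pairs over 0.1), so the A and B letters of the titles were not used to pair arrays. CCH 1 week replicate 1 and CCH 2 weeks replicate 1 carry no letter and were given the one their group lacked. With the letters as a replicate block, CIH minus control counted 169 units, and no call of the 3 genes changed (Pdk4 over all arrays 0.24, adjusted p = 0.0215).

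Leaving out 1 array at a time, the control ratio ranged from -0.27 to 0.15 for Pdk1 and from -0.13 to 0.15 for Pdk4. Pdk2 over all arrays ranged from -0.17 to -0.11. CCH minus control ranged from -0.079 to 0.34 for Pdk1 and from -0.099 to 0.078 for Pdk2. For Pdk2, CIH minus control ranged from -0.075 to 0.091 and CCH minus CIH from -0.11 to 0.070. From 1 to 4 weeks Pdk1 ranged from -0.23 to 0.20. The correlation of Pdk1 ranged from 0.29 to 0.63 with Pdk2 and from 0.48 to 0.65 with Pdk4. Counts ranged from 1 to 34 in the controls (34 without control 1 week replicate 2), from 0 to 1 in CCH minus control, 4 weeks minus 1 week and the F test, from 1 to 305 in CIH minus control (305 without control 2 weeks replicate 1) and from 0 to 196 in CCH minus CIH (196 without CCH 2 weeks replicate 1).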
